A study of Sus scrofa with 16 samples.

Results

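The genes described here carry the signals by which blood vessels grow and mature. They are the vascular endothelial growth factor (VEGF) receptors FLT1 and KDR, the angiopoietin ligands ANGPT1 and ANGPT2, the TIE receptors TEK and TIE1, the Notch ligand DLL4, apelin (APLN) and its receptor APLNR, and the secreted endothelial proteoglycan ESM1. They were chosen by name, as the entries of the expression table whose pig Ensembl gene ID maps to one of 10 symbols. Of these, 8 were found, each as 1 entry among 22815 distinct entries. APLN and APLNR matched no entry by ID and were not analysed here.

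RNA was sequenced from the left hippocampus of 16 preterm pigs, to ask whether necrotizing enterocolitis (NEC), an inflammatory disease of the preterm gut, goes with altered gene expression in the developing brain. All pigs were Danish Landrace x Large White x Duroc crosses delivered by cesarean section. They were fed human donor milk with parenteral nutrition and examined after 8 days, and NEC arose under that feeding. The study used several sows and several types of donor milk. Which sow and which milk each of the 16 pigs had is not known here, so neither can be told apart from diagnosis. The Si-NEC group (siNEC in the labels) held 6 pigs with severe lesions of the small intestine, with or without lesions of the colon. The Co-NEC group (coNEC) held 5 pigs with severe lesions of the colon only, and the No NEC group (noNEC) held 5 pigs without lesions. Each group held both sexes, with 3 female and 3 male Si-NEC pigs and 2 female and 3 male pigs in each of the other groups. Lesions developed spontaneously, so diagnosis was not assigned. The Si-NEC group may mix pigs with and without colon lesions, and which of the 6 had them is not known here. Each value is from 1 pig.

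As background, VEGF acts mainly through KDR, the receptor that drives endothelial division and migration, while FLT1 binds VEGF tightly, signals weakly and is also made as a soluble decoy. ANGPT1, made largely by perivascular cells, activates TEK (also called TIE2) and stabilizes vessels. ANGPT2, released by activated endothelium, can oppose that action, and TIE1 is a partner receptor with no ligand of its own known to bind it firmly. At the front of a growing sprout, tip cells express DLL4, which restrains their neighbors through Notch, and also ESM1 and apelin. The late fetal and newborn brain is a site of active vessel growth.

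Expression was given by the authors as FPKM (fragments per kilobase of transcript, relative to all mapped fragments of the pig), which is scaled for gene length. FPKM values hold no depth, so the depth behind each value is unknown. Pigs 230-15 (No NEC) and 223-15 (Si-NEC) stood apart from the others. They had the highest sums of FPKM and, across genes, the weakest likeness to the rest (median r 0.902 and 0.933). Values without pig 230-15 or 223-15 are given where leaving it out turned a direction or moved a difference named here by over 1.5 times. For differences within a sex or within the same ending of the pig number, values without these pigs are not given. Of 6 hippocampal markers 3 were found, PROX1, NEUROD1 and ZBTB20, and they summed to 14.9 to 28.1 FPKM. Of 18 endothelial identity genes 8 were found. Their summed FPKM was 74.7 to 100.2 in No NEC pigs, 67.9 to 82.2 in Co-NEC pigs and 67.6 to 79.0 in Si-NEC pigs. The highest of these sums is that of pig 230-15, in which EGFL7 alone had 62.9 FPKM against 21.7 to 33.3 in the other No NEC pigs, and without that pig the highest No NEC sum was 89.5. All measurements are of bulk tissue, in which fewer cells of a type and less RNA per cell cannot be told apart.

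All 8 genes were expressed at low levels. By mean FPKM over the 16 pigs, FLT1 was highest at 9.04, followed by TIE1 at 6.98, KDR at 3.78, ANGPT1 at 2.84, TEK at 2.57, DLL4 at 2.30, ANGPT2 at 2.13 and ESM1 at 0.942. FLT1 was above TIE1 in 12 of 16 pigs, KDR above ANGPT1 in 12, ANGPT1 above TEK in 6, TEK above DLL4 in 12 and DLL4 above ANGPT2 in 10, so the order of these neighbors changed from pig to pig. TIE1 exceeded KDR and ANGPT2 exceeded ESM1 in all 16 pigs. The pigs differed most in FLT1, with the highest pig 5.56 times the lowest, and in DLL4, with a ratio of 5.22. They differed least in TEK, with a ratio of 1.93. Within groups, the standard deviation of log2(FPKM + 0.5) was 0.52 for FLT1, 0.47 for ANGPT2, 0.43 for KDR and 0.40 for DLL4, against a median of 0.29 over all 13590 entries tested, with ANGPT1 at 0.37 and ESM1 at 0.36 also above it. TEK at 0.25 and TIE1 at 0.23 were below that median. Thus 6 of the 8 genes varied more between pigs of one diagnosis than most entries, and the TIE receptors less.

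**Figure D1:**
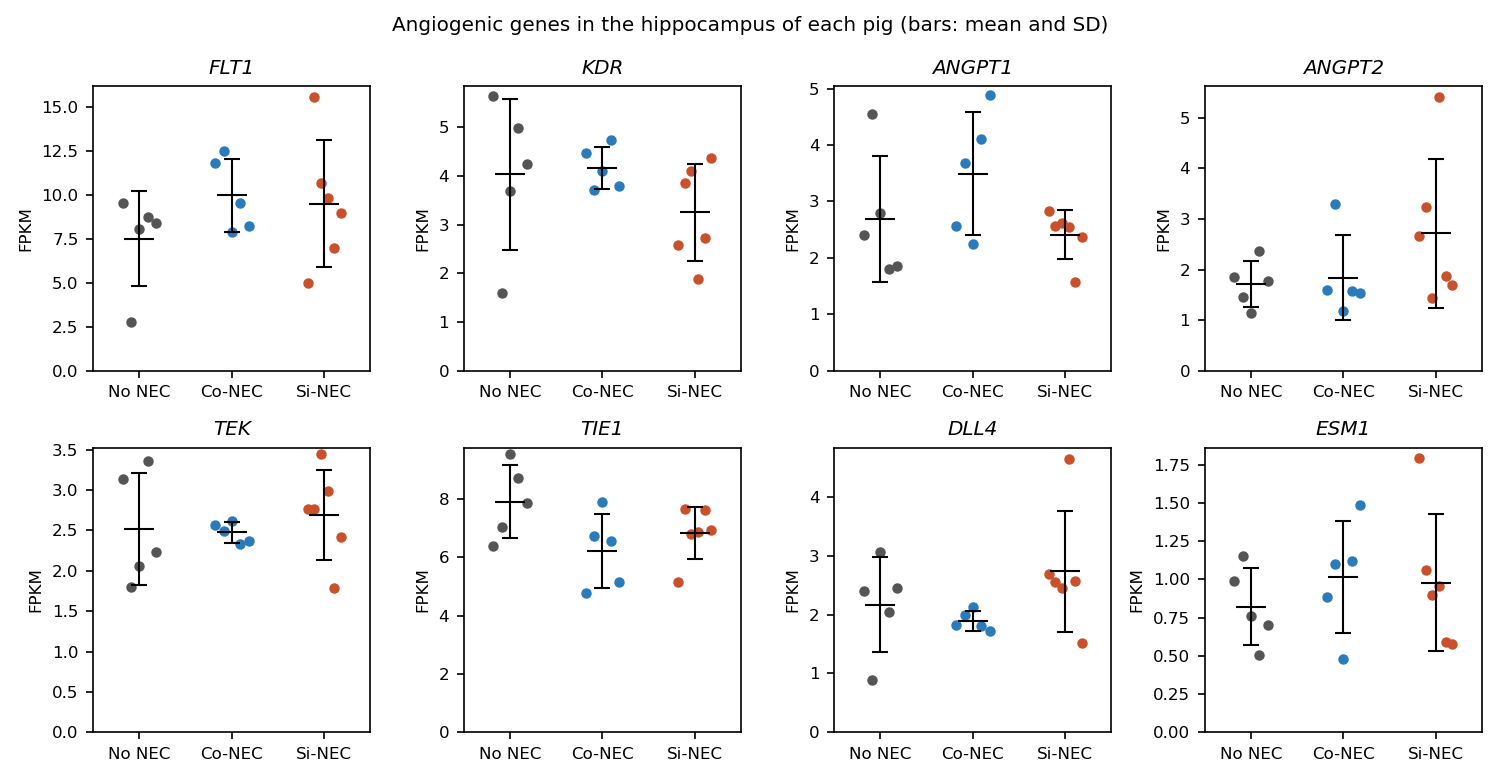
FPKM of the 8 genes in each pig, by diagnosis. Points are single pigs, and bars give the mean and SD (n = 5 No NEC, 5 Co-NEC and 6 Si-NEC pigs). The groups overlap in every panel, and pig 230-15, at 2.80 FPKM of FLT1, is the lowest No NEC point for FLT1, KDR, TEK and DLL4.

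Groups were compared in pairs with limma on log2(FPKM + 0.5) over the 13590 entries that averaged 0.5 FPKM or more. P values were adjusted over all of them by Benjamini-Hochberg, and 0.2, used by the study, was the threshold. A two-sided exact permutation test of each gene stands beside it. Its smallest possible p is 0.00216 for 6 against 5 pigs and 0.00794 for 5 against 5. Fold changes refer to FPKM + 0.5, which understates changes of genes near or under that offset. All 8 genes found passed the filter on low values.

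No diagnosis was marked by a called change in these genes. Of the 8, limma called 0 for Si-NEC against No NEC, where 0.00736% of all entries were called, 0 for Co-NEC against No NEC (0.00736% of all entries), and 0 for Si-NEC against Co-NEC (0.0147%). An unadjusted limma p under 0.05 was reached by 0, 0 and 1 of the 8 in the same order, against 2.61%, 3.44% and 5.64% of all entries. The 1 gene, ANGPT1 in the last comparison, was lower in the Si-NEC group, as were 2.40% of all entries. The exact permutation test gave 0 of the 8 a p under 0.05 in any comparison. No gene of the 8 had groups that did not overlap, as 0.155%, 0.464% and 0.545% of all entries did. The median log2 fold change of the 8 was 0.11, 0.08 and 0.02, beside 0.02, 0.01 and 0.00005 over all entries. The comparisons share pigs and are not independent of each other.

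**Figure D2:**
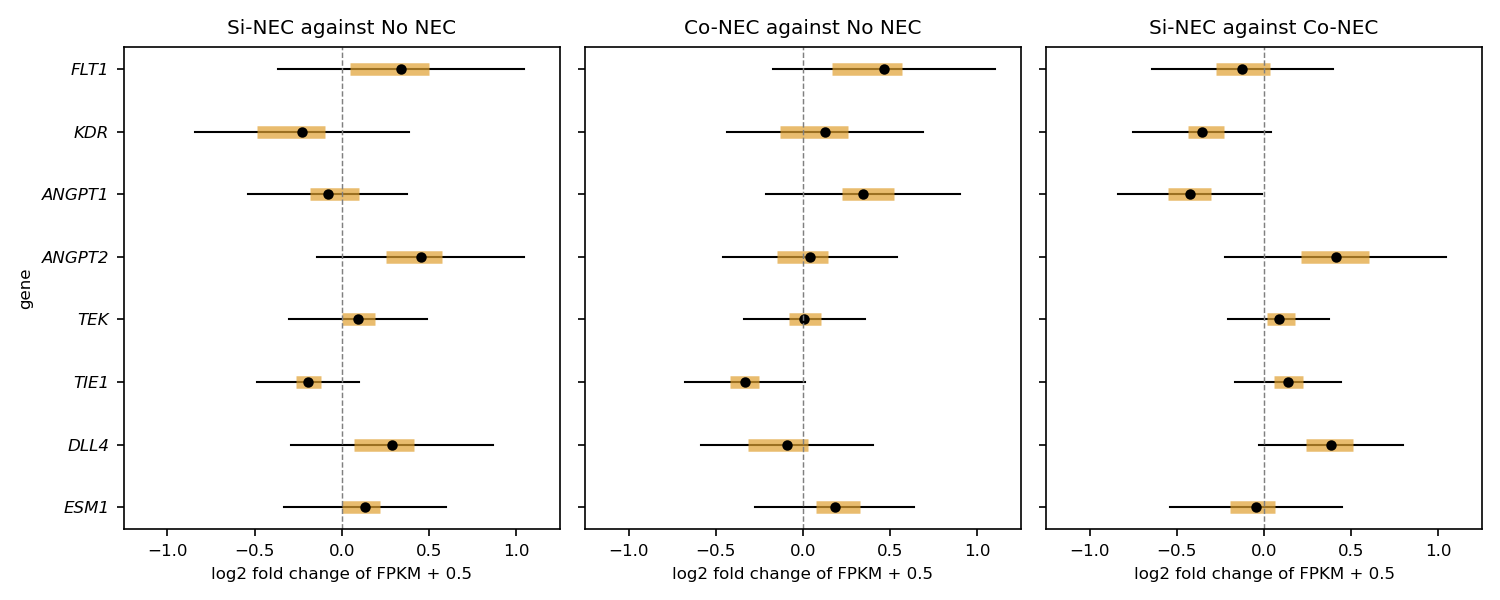
Log2 fold changes of the 8 genes in the 3 comparisons. Dots are the limma estimates on FPKM + 0.5, black lines their 95% confidence intervals, and orange bands the range when each pig was left out in turn. Of the 24 intervals only that of ANGPT1 for Si-NEC against Co-NEC, -0.84 to -0.01, lies on one side of 0.

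Among the VEGF receptors, FLT1 had a higher mean in both NEC groups than in No NEC pigs, but not beyond the spread between pigs. The No NEC pigs had 2.80, 8.09, 8.41, 8.77 and 9.54 FPKM, and the Co-NEC pigs 7.92, 8.21, 9.53, 11.8 and 12.5 FPKM. The Si-NEC pigs ranged from 4.98 to 15.6 FPKM (median 9.42). The highest pigs belonged to the NEC groups and pig 230-15 was by far the lowest, while the remaining pigs overlapped. Its log2 fold change was 0.46 (SE 0.29, limma adjusted p = 0.812, exact permutation p = 0.183) for Co-NEC and 0.34 (SE 0.32, limma adjusted p = 1, exact permutation p = 0.390) for Si-NEC against No NEC pigs. Without pig 230-15 these values dropped to 0.17 and 0.04. For Si-NEC against Co-NEC it was -0.12 (SE 0.24), or 0.033 without pig 223-15.

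KDR, the main signaling receptor of VEGF, had its lowest mean in Si-NEC pigs, again within the spread between pigs. Its FPKM was 1.59, 3.69, 4.24, 4.99 and 5.64 in No NEC pigs and 3.71, 3.80, 4.11, 4.47 and 4.74 in Co-NEC pigs. In Si-NEC pigs it ranged from 1.88 to 4.36 (median 3.29), and 3 of the 6 lay below every Co-NEC pig. The log2 fold change of Si-NEC against Co-NEC pigs was -0.35 (SE 0.18, 95% interval -0.75 to 0.04, limma adjusted p = 0.867, exact permutation p = 0.104). Against No NEC pigs it was -0.23 (SE 0.28) for Si-NEC and 0.13 (SE 0.26) for Co-NEC, and without pig 230-15 these values were -0.48 (SE 0.21, limma adjusted p = 0.994, exact permutation p = 0.0667) and -0.13. The low No NEC value thus came from the same pig as for FLT1. Within the sexes, KDR of Si-NEC minus No NEC was -0.68 among females and 0.14 among males, where pig 230-15 is 1 of the No NEC pigs. Si-NEC minus Co-NEC was -0.47 among females and -0.21 among males.

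Because FPKM is scaled for length, the levels of FLT1 and KDR can be set side by side, and FLT1 exceeded KDR in every pig. The ratio of their FPKM was 1.69, 1.76, 1.76, 1.98 and 2.19 in No NEC pigs. It was 1.93, 2.01, 2.16, 2.64 and 3.37 in Co-NEC pigs and 1.93 to 5.22 (median 2.58) in Si-NEC pigs. Pig 230-15, lowest for both receptors, had a ratio of 1.76, among the other No NEC pigs. The highest ratios, 5.22 and 4.04, were those of Si-NEC pigs 246-15 and 224-15. On the log2 scale the mean was 0.81 ± 0.16 (SD, n = 5) in No NEC, 1.15 ± 0.31 (n = 5) in Co-NEC and 1.38 ± 0.51 (n = 6) in Si-NEC pigs. Leaving out each pig in turn kept the difference of Si-NEC from No NEC between 0.42 and 0.68 and that of Co-NEC from No NEC between 0.22 and 0.41. The ratio combines genes chosen with results known and was given no test.

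Across the 16 pigs, log2 values of FLT1 and KDR had Pearson r = 0.62 (permutation p = 0.0137, adjusted p = 0.0548 over the 4 pairs of genes examined) and Spearman rho = 0.39 (permutation p = 0.139, adjusted p = 0.555). Without pigs 223-15 and 230-15, which are the 2 farthest from the median of FLT1, r was 0.09, so the relation rests on those pigs. Within the Si-NEC group of 6 it was 0.42 (exact permutation test, p = 0.406). The other pairs were weaker over all 16 pigs. TEK and TIE1 gave r = -0.13 (permutation p = 0.643), ANGPT2 and ESM1 r = 0.25 (permutation p = 0.341) and DLL4 and ESM1 r = -0.05 (permutation p = 0.847), with adjusted p values of 0.847, 0.682 and 0.847.

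Of the angiopoietins, ANGPT1 was lowest on average in Si-NEC and highest in Co-NEC pigs. The No NEC pigs had 1.81, 1.86, 2.41, 2.80 and 4.55 FPKM and the Co-NEC pigs 2.24, 2.56, 3.68, 4.10 and 4.88 FPKM. Si-NEC pigs ranged from 1.57 to 2.84 FPKM (median 2.55). Thus 3 of the 5 Co-NEC pigs exceeded the highest Si-NEC value, and the other 2 were within the Si-NEC range. The log2 fold change of Si-NEC against Co-NEC pigs was -0.42 (SE 0.19, 95% interval -0.84 to -0.01), with an unadjusted limma p of 0.0444, a limma adjusted p of 0.867 and an exact permutation p of 0.0801. Co-NEC exceeded No NEC pigs by 0.34 (SE 0.25, limma adjusted p = 0.812, exact permutation p = 0.246), and Si-NEC differed from No NEC pigs by -0.08 (SE 0.21). Without pig 230-15, which had the most ANGPT1 of the No NEC pigs, these differences were 0.53 (SE 0.21, limma adjusted p = 0.806, exact permutation p = 0.0714) and 0.10, and without pig 223-15 the second was -0.12.

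The difference in ANGPT1 was uneven within the series. Pig numbers end in 14 or 15, which the labels do not explain. All pigs with numbers ending in 14 are male, and all females have numbers ending in 15. The split by number is thus in part a split by sex. Among pigs with numbers ending in 14, Si-NEC was lower than Co-NEC by a log2 difference of -1.03 (2 against 2 pigs), and among those ending in 15 the difference was -0.06 (4 against 3 pigs). Co-NEC minus No NEC was likewise 1.09 within the first set and -0.16 within the second. The No NEC pigs of the second set include pig 230-15, at 4.55 FPKM of ANGPT1 against 2.41 and 2.80 in the others. The value of -0.16 thus leans on that pig. With all pigs kept, 2 of the 8 genes held their sign in both sets for each NEC group against No NEC pigs. Between the NEC groups 6 did. For Si-NEC against No NEC, FLT1 differed by -0.11 in the first set and 0.61 in the second, and DLL4 by -0.14 and 0.52. The second set again includes pig 230-15, at 2.80 FPKM of FLT1 and 0.890 of DLL4. Its other No NEC pigs had 8.09 and 9.54 FPKM of FLT1 and 2.39 and 3.06 of DLL4. The values of 0.61 and 0.52 thus lean on pig 230-15. Within the sexes, ANGPT1 differed by -0.11 among females and -0.68 among males for Si-NEC against Co-NEC. For Co-NEC against No NEC it differed by 0.13 and 0.49, with pig 230-15 among the males. For Si-NEC against No NEC, FLT1 differed by 0.06 among females and 0.51 among males, and DLL4 by 0.20 and 0.27. The part of sex and of the pig number in these values was not tested. Perivascular cells are a main source of ANGPT1, and their markers were compared beside it. Of 10 mural markers 9 were found, with MYH11 at 0 in every pig, and their summed FPKM was 29.7 to 46.9 in No NEC, 35.2 to 49.2 in Co-NEC and 40.4 to 51.6 in Si-NEC pigs. Pig 230-15, which stood apart from the others, had the lowest mural sum and the second-highest ANGPT1 of all pigs. That pig alone does not show how the mural sum and ANGPT1 relate, and their relation across the pigs was not computed. The part of perivascular cells in the group differences was not tested.

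ANGPT2 was led by a few pigs. Its FPKM was 1.15, 1.47, 1.77, 1.85 and 2.37 in No NEC pigs and 1.19, 1.54, 1.57, 1.61 and 3.30 in Co-NEC pigs. In Si-NEC pigs it spanned 1.44 to 5.40 (median 2.27). Pigs 246-15, 224-15 and 223-15, at 5.40, 3.23 and 2.66, lay above every No NEC pig, while the other 3 Si-NEC pigs lay among them. These 3 high pigs are the 3 females of the Si-NEC group and all have numbers ending in 15, whereas the other 3 are males, 1 of them with such a number. The log2 fold change was 0.45 (SE 0.27, limma adjusted p = 1, exact permutation p = 0.160) for Si-NEC against No NEC and 0.41 (SE 0.29, limma adjusted p = 0.875, exact permutation p = 0.245) against Co-NEC pigs. It was 0.26 and 0.21 without pig 246-15. Within the sexes, Si-NEC minus No NEC was 1.06 among females (3 against 2 pigs) and -0.11 among males (3 against 3). By the ending of the pig number it was -0.16 for 14 and 0.79 for 15. With sex as a covariate it was 0.41 (SE 0.26), and the part of sex and of the pig number in it was not tested. Co-NEC pigs differed from No NEC pigs by 0.04 (SE 0.23), or by -0.15 without pig 231-15 and 0.0042 without pig 230-15.

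The pigs with high ANGPT2 in the Si-NEC group also had the highest summed FPKM of neutrophil markers, nearly all of it from S100A8. Of 6 such markers 4 were found, with CSF3R at 0 in every pig, and their summed FPKM was 1.09 to 3.50 in No NEC, 1.04 to 2.63 in Co-NEC and 2.65 to 25.3 in Si-NEC pigs. The sums in pigs 246-15, 224-15 and 223-15 were 25.3, 21.7 and 15.2, and S100A8 alone had log2(FPKM + 0.5) of 4.67, 4.44 and 3.93 there. Si-NEC pigs 539-14 and 226-15, at 7.67 and 5.08, also had sums above every No NEC pig. Pig 226-15 had the lowest ANGPT2 of the Si-NEC group, at 1.44 FPKM. Co-NEC pig 231-15, with 3.30 FPKM of ANGPT2, had a sum of 1.28. Of this list only S100A8 passed the filter on low values, and the part of such cells in the ANGPT2 values was not tested.

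The ratio of ANGPT2 to ANGPT1 FPKM exceeded 1 in 3 of 6 Si-NEC pigs, 1 of 5 No NEC pigs and 0 of 5 Co-NEC pigs. It was 0.323, 0.409, 0.767, 0.951 and 1.31 in No NEC pigs and 0.316, 0.384, 0.530, 0.628 and 0.897 in Co-NEC pigs. In Si-NEC pigs it ranged from 0.553 to 2.12 (median 1.07), and the groups overlapped. The log2 means were -0.48 ± 0.69 (SD, n = 5), -0.78 ± 0.50 (n = 5) and 0.05 ± 0.57 (n = 6) in No NEC, Co-NEC and Si-NEC pigs. Their difference between Si-NEC and Co-NEC, 0.84, stayed between 0.654 and 0.997 when each pig was left out in turn, and as with FLT1 and KDR no test was made.

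**Figure D3:**
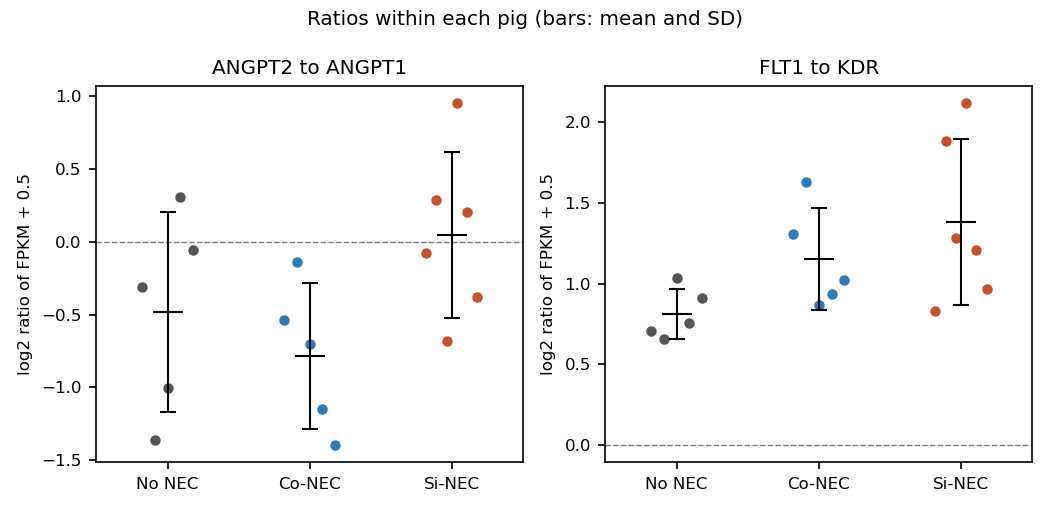
Log2 ratio of ANGPT2 to ANGPT1 and of FLT1 to KDR within each pig, from FPKM + 0.5, by diagnosis. Points are pigs, bars the mean and SD, and the dashed line marks equal levels. FLT1 exceeds KDR in all 16 pigs, and the ANGPT2 to ANGPT1 ratio is highest in a Si-NEC pig, at 0.95 on this scale.

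The receptor TEK, which both angiopoietins bind, had nearly the same mean in all groups. It was 2.52 ± 0.691 FPKM (SD, n = 5) in No NEC, 2.48 ± 0.126 (n = 5) in Co-NEC and 2.69 ± 0.559 (n = 6) in Si-NEC pigs. The No NEC pigs had 1.79, 2.06, 2.24, 3.14 and 3.36 FPKM, whereas the Co-NEC pigs lay close together at 2.33, 2.37, 2.49, 2.57 and 2.62 FPKM. Si-NEC pigs ranged from 1.78 to 3.44 FPKM (median 2.77), and 4 of the 6 exceeded the highest Co-NEC value. The log2 fold changes were 0.09 (95% interval -0.30 to 0.49) for Si-NEC and 0.01 (-0.34 to 0.35) for Co-NEC against No NEC pigs, and 0.08 (-0.21 to 0.38) between the NEC groups. Without pig 230-15 the differences from No NEC pigs were 0.00079 and -0.082. Of its variance in log2 value over the 16 pigs, 3.47% lay between groups, against a median of 10.4% over all entries tested.

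TIE1 showed the largest share of variance between groups of the 8 genes, 29.3%, and was lower on average in both NEC groups. The No NEC pigs had 6.41, 7.05, 7.86, 8.74 and 9.53 FPKM and the Co-NEC pigs 4.78, 5.14, 6.57, 6.73 and 7.89 FPKM. Si-NEC pigs ranged from 5.16 to 7.66 FPKM (median 6.90). The 2 lowest Co-NEC pigs and the lowest Si-NEC pig were below every No NEC pig, and the other values overlapped. Set against the No NEC group, TIE1 had a log2 fold change of -0.33 (SE 0.16, 95% interval -0.68 to 0.01, limma adjusted p = 0.812, exact permutation p = 0.0794) for Co-NEC and -0.19 (SE 0.13, limma adjusted p = 1, exact permutation p = 0.162) for Si-NEC. Leaving out each pig in turn gave -0.42 to -0.25 and -0.26 to -0.12. TIE1 was lower in Co-NEC than in No NEC pigs both among pigs with numbers ending in 14 (-0.48) and among those ending in 15 (-0.24). For Si-NEC the values were -0.18 and -0.19. The latter includes pig 223-15, at 5.16 FPKM against 6.82 to 7.66 in the other Si-NEC pigs with numbers ending in 15, and leans on it. Without pig 223-15, TIE1 differed by -0.12 for Si-NEC against No NEC and by 0.21 between the NEC groups, where it was 0.14 with all pigs. The pigs with numbers ending in 14 are all male. Within the sexes, Co-NEC minus No NEC was -0.10 among females and -0.49 among males, and Si-NEC minus No NEC was -0.25 and -0.13. Si-NEC minus Co-NEC was -0.16 among females, who include pig 223-15, and 0.36 among males.

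Of the tip cell genes, DLL4 differed most between the NEC groups. The Co-NEC pigs had 1.71, 1.80, 1.83, 1.99 and 2.13 FPKM and the No NEC pigs 0.890, 2.04, 2.39, 2.45 and 3.06 FPKM. The range in Si-NEC pigs was 1.52 to 4.65 FPKM (median 2.56). All but 1 of the 6 exceeded the highest Co-NEC value, and the remaining pig, 547-14, was below the lowest. The log2 fold change of Si-NEC against Co-NEC pigs was 0.38 (SE 0.19, 95% interval -0.03 to 0.80, limma adjusted p = 0.867, exact permutation p = 0.0606). It ranged from 0.24 without pig 246-15 to 0.51 without 547-14. Against No NEC pigs it was 0.29 (SE 0.27) for Si-NEC, or 0.07 without pig 230-15, and -0.09 (SE 0.22, limma adjusted p = 0.918, exact permutation p = 0.746) for Co-NEC. The latter was -0.31 without that pig (SE 0.12, unadjusted limma p = 0.0303, limma adjusted p = 0.806, exact permutation p = 0.0238). Pig 230-15 had the lowest DLL4 of all 16 pigs. With it left out, 364 of 13590 entries were higher and 215 lower in Co-NEC pigs at an unadjusted limma p under 0.05.

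ESM1, also known as endocan, was the lowest of the 8 and differed least between groups after TEK. It had 0.504, 0.705, 0.762, 0.987 and 1.15 FPKM in No NEC pigs and 0.482, 0.887, 1.10, 1.12 and 1.49 FPKM in Co-NEC pigs. Values in Si-NEC pigs spanned 0.575 to 1.80 FPKM (median 0.928), with pig 223-15 highest of all pigs. The log2 fold changes were 0.14 (SE 0.21), 0.18 (SE 0.21) and -0.05 (SE 0.23) for Si-NEC and Co-NEC against No NEC pigs and for Si-NEC against Co-NEC pigs. Without pig 230-15 the first was 0.22, and without pig 223-15 the first and last were -0.0013 and -0.18. Between groups lay 5.07% of its variance.

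**Figure D4:**
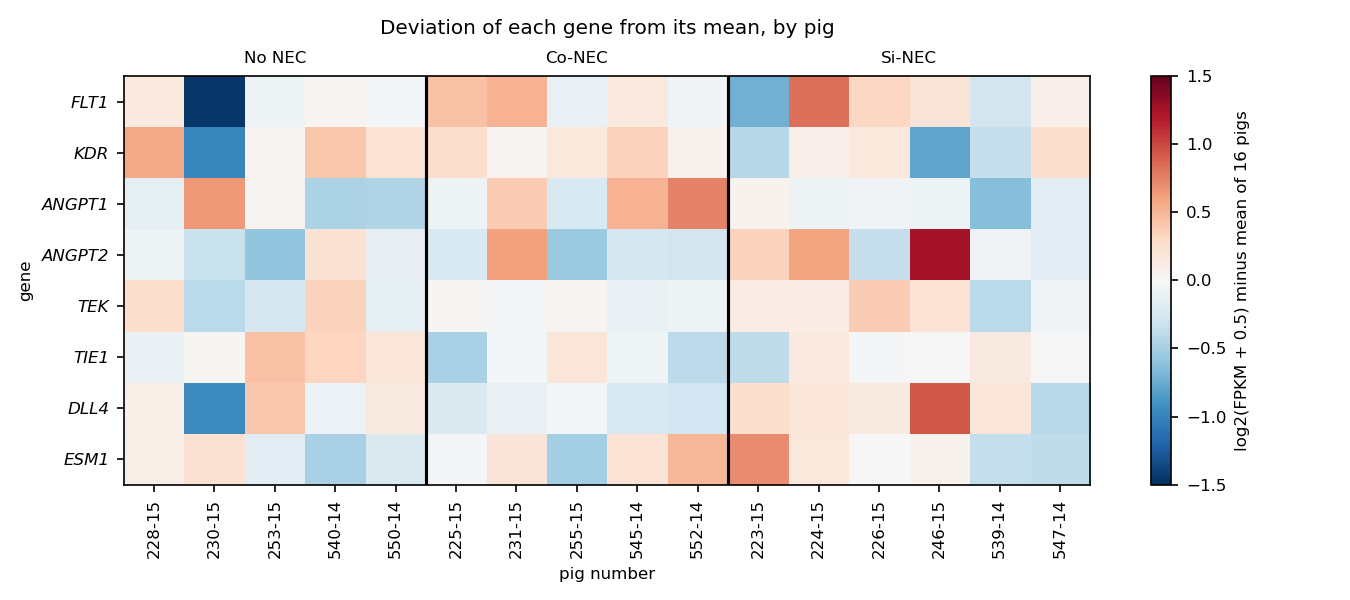
Deviation of each gene from its mean over the 16 pigs, in log2(FPKM + 0.5), with 1 column per pig and black lines between diagnoses. Red is above and blue below the mean. Pig 230-15 is blue for FLT1, KDR and DLL4 and red for ANGPT1, and pig 246-15 is red for ANGPT2 and DLL4 and blue for KDR.

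Single pigs carried much of the variation. Pig 230-15 was lowest of all 16 pigs for FLT1, KDR and DLL4 and second-lowest for TEK, yet second-highest for ANGPT1 and third-highest for ESM1. Pig 246-15 was highest for ANGPT2 and DLL4 but second-lowest for KDR. Pig 223-15 was second-lowest for FLT1 and highest for ESM1. No pig was therefore low or high for all 8 genes. The mean log2 level of the 7 endothelial identity genes that passed the filter was 2.89 in pig 230-15, within the No NEC range of 2.83 to 3.33. That mean includes EGFL7, at 62.9 FPKM in pig 230-15 against 21.7 to 33.3 in the other No NEC pigs. PECAM1, ERG, MFSD2A and CLEC14A were at their lowest No NEC value in pig 230-15, and SLCO1C1 and ECSCR were not. The mean without EGFL7 is not given, so 2.89 does not show ordinary levels of these genes in that pig. In pig 246-15 the mean of the 7 genes was 3.26, second-highest of all pigs.

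Relative to these 7 endothelial identity genes of the same pig, more differences appeared, and the reference itself differed between groups. Their mean log2 level was 2.86 ± 0.085 (SD, n = 5) in Co-NEC, 2.99 ± 0.180 (n = 6) in Si-NEC and 3.06 ± 0.213 (n = 5) in No NEC pigs, with a difference of -0.20 for Co-NEC against No NEC (exact permutation test, p = 0.0873), or -0.24 without pig 230-15. At an unadjusted limma p under 0.05, 2 of the 7 were lower for Si-NEC against No NEC (1.02% of all entries) and 0 were lower or higher for Co-NEC against No NEC (3.44%). For Si-NEC against Co-NEC 3 were higher (3.25% of all entries) and 1 lower (2.40%). Of 24 differences tested, 4 had an exact permutation p under 0.05. FLT1 was higher in Co-NEC than in No NEC pigs by a log2 difference of 0.66 (exact permutation p = 0.00794, the smallest possible), with no overlap between 0.28 to 0.81 and -1.16 to 0.27, and by 0.41 without pig 230-15. TEK was higher by 0.21 in the same comparison (exact permutation p = 0.0476). When each pig was left out in turn, the exact permutation p of FLT1 stayed under 0.05 in 10 of 10 runs and that of TEK in 3 of 10, with a highest value of 0.0873. On this scale, however, 19.8% of all entries were higher in Co-NEC pigs at an exact p under 0.05 and 6.33% did not overlap in that direction. The share of entries that moved was thus large, and 2 of 8 genes is near it.

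The other 2 were ANGPT2 and ANGPT1. ANGPT2 relative to the endothelial genes exceeded its No NEC level in the Si-NEC group by 0.52 (exact permutation p = 0.0238), with 5 of 6 pigs of that group higher than any No NEC pig, and 3.38% of all entries were higher at that level. The difference stayed between 0.38 and 0.63 when each pig was left out, and the exact permutation p was under 0.05 in 9 of 11 such runs and 0.0524 without pig 228-15. ANGPT1 on this scale differed by -0.55 for Si-NEC against Co-NEC (exact permutation p = 0.0130), where 10.4% of all entries were lower, and its p was at most 0.0397 (exact permutation test) in all 11 runs. These p values are not adjusted for the number of tests, and the reference covers 7 of 18 identity genes listed.

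**Figure D5:**
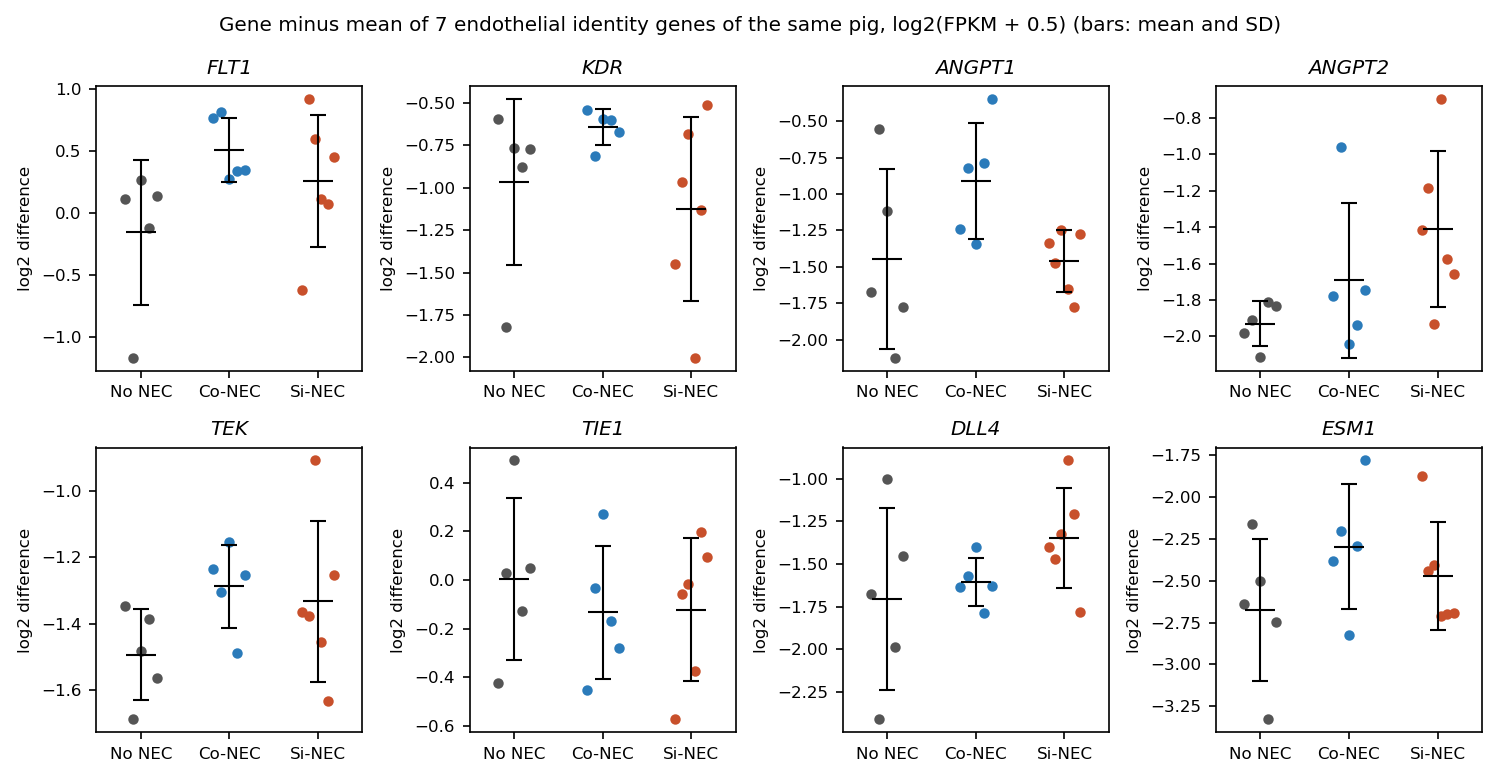
Each gene minus the mean of 7 endothelial identity genes of the same pig, in log2(FPKM + 0.5), by diagnosis. Points are pigs and bars the mean and SD. For ANGPT2, 5 of 6 Si-NEC pigs lie above every No NEC pig, and for FLT1 the Co-NEC pigs lie just above the No NEC pigs.

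Other genes of these pathways gave no called change either. Of 39 listed ligands, co-receptors, Notch, BMP and Wnt arm genes, 25 were found and 21 passed the filter, and limma called 0 of 21 in each comparison. At an unadjusted limma p under 0.05, 0 genes stood out for Si-NEC against No NEC. For Co-NEC against No NEC 1 was lower (1.32% of all entries), and for Si-NEC against Co-NEC 1 was higher (3.25% of all entries) and 1 lower (2.40%). Medians of their log2 fold changes were 0.02, 0.04 and 0.03. NRP2 and S1PR1 were listed at 0 in every pig, and VEGFB and PGF were not analysed here.

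VEGFA, the main ligand of KDR and FLT1, averaged 15.3 ± 5.68 FPKM (SD, n = 5) in No NEC, 17.6 ± 3.35 (n = 5) in Co-NEC and 16.8 ± 4.51 (n = 6) in Si-NEC pigs. The log2 fold changes of VEGFA were 0.26 (SE 0.25) for Co-NEC and 0.16 (SE 0.27) for Si-NEC against No NEC pigs, and pig 230-15 was again the lowest, at 8.21 FPKM. Without it they were 0.061 (SE 0.19) and -0.034 (SE 0.24), and without pig 223-15 the Si-NEC value was 0.32. NRP1, a co-receptor of VEGF, was more abundant than either receptor, at 22.5 ± 3.84, 23.3 ± 4.17 and 27.2 ± 5.47 FPKM in No NEC, Co-NEC and Si-NEC pigs. Si-NEC exceeded No NEC by 0.26 on the log2 scale (SE 0.15, exact permutation p = 0.141). PTPRB, the phosphatase that restrains TEK, differed by -0.10 (SE 0.32) for Si-NEC and 0.05 (SE 0.30) for Co-NEC against No NEC pigs, or by -0.39 and -0.24 without pig 230-15. Without pig 223-15 its Si-NEC value was 0.045. VEGFD and the lymphatic receptor FLT4 were below the filter, with group means of 0.324 to 0.533 and 0.282 to 0.335 FPKM.

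VEGFC, the main ligand of FLT4, was the pathway gene with the lower value in Co-NEC pigs. It had 0.422, 0.437, 0.465, 0.504 and 0.761 FPKM there and 0.655, 0.716, 0.862, 0.898 and 1.02 FPKM in No NEC pigs. All but 1 Co-NEC pig were below every No NEC pig, and the log2 fold change was -0.39 (SE 0.14, unadjusted limma p = 0.0178, limma adjusted p = 0.812, exact permutation p = 0.0238). Si-NEC pigs ranged from 0.335 to 1.92 FPKM, with pigs 246-15 and 224-15 highest, as for ANGPT2. ENG (endoglin), a co-receptor of the BMP arm in endothelium, had groups that did not overlap, at 9.90 to 18.3 FPKM in Si-NEC and 8.30 to 9.63 FPKM in Co-NEC pigs, as had 0.309% of all entries in this direction. The log2 fold change was 0.44 (SE 0.17, unadjusted limma p = 0.0253, limma adjusted p = 0.865, exact permutation p = 0.0216). BMPR2, a receptor of the same arm, had a log2 fold change of -0.25 for Si-NEC against Co-NEC (SE 0.09, unadjusted limma p = 0.0189, limma adjusted p = 0.858, exact permutation p = 0.0152). None of the 3 passed the adjusted threshold.

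The entries whose log2 values ran most nearly with each gene over the 16 pigs were sought among all entries tested, as a description. For ANGPT2 they were MAFF, a small MAF transcription factor (r = 0.92), OSMR, the oncostatin M receptor subunit (r = 0.89), and VSIG2 (r = 0.88). These stayed at 0.91, 0.92 and 0.89 without pigs 223-15 and 230-15. For TIE1 they were RHBDF1 (r = 0.92), GRIP2 (r = 0.85) and PIDD1 (r = 0.85), with values of 0.83 to 0.90 without the 2 pigs. For DLL4 they were FAM43A (r = 0.91), KCNK3 (r = 0.86) and an entry with no symbol (r = 0.85).

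FLT1 was most like an entry with no symbol (r = 0.96), KMT2A (r = 0.92) and SBF2 (r = 0.92). Without the 2 pigs these fell to 0.83, 0.68 and 0.68, so the likeness of KMT2A and SBF2 to FLT1 depended in large part on those pigs. KDR was closest to SLC52A3 (r = 0.87), MYOF (r = 0.87) and PLEKHA8 (r = 0.87), ANGPT1 to PCDH17 (r = 0.88, by 1 of several entries of that ID), CFAP44 (r = 0.88) and an entry with no symbol (r = 0.83). ESM1 was closest to UGDH (r = 0.88), an entry with no symbol (r = 0.87) and MAGT1 (r = 0.86), and TEK to 2 entries with no symbol (r = 0.83 each) and PTPN2 (r = 0.83). None of the 24 was another of the 8 genes. All these values come from the same libraries, and the 3 given for each gene were the highest of 13590 entries.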

How the data were processed

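Left hippocampal RNA from 16 pigs was sequenced with paired-end reads. The authors trimmed the reads, aligned them to Sscrofa10.2 with TopHat2 2.1.1 and deposited FPKM values per gene and pig estimated with Cufflinks 2.2.1. Any scaling between pigs is not given in the sources used here. Values under 0.1 FPKM shared no common step between pigs, so depth could not be recovered, and no counting error can be given. Among the 4038 entries that averaged over 20 FPKM, 49 hold a listed 0 for some pig, and such a 0 can be a failed estimate.

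From 24594 lines for 21956 gene IDs, 1779 identical lines were dropped. Symbols were taken from a reference table, which named 11001 IDs. Groups came from the sample labels. Entries averaging 0.5 FPKM or more were tested on log2(FPKM + 0.5) with limma 3.58.1 in R 4.3.3 (lmFit, eBayes with a mean-variance trend), each pair of groups on its own. The study used Cuffdiff, which needs reads. Exact and 100000-resample permutation tests used scipy 1.17.1 in Python 3.11.15, with two-sided p values. The fits were tested on simulated data. Members and lists were chosen with earlier results of these data known. Named genes were the members, VEGFA, VEGFB, VEGFC, VEGFD, PGF, FLT4, NRP1 and PTPRB, pathway genes with an unadjusted p under 0.05, the 3 entries most like each member by Pearson r, and markers at 0. Alternatives were pseudocounts of 0.1 and 1, no filter or a minimum of 1 FPKM, median-of-ratios rescaling, 1 fit of all groups, sex or number suffix as a covariate, no variance trend, array weights, an endothelial reference, an adjusted p of 0.05 and leaving out each pig. Leaving out pigs 223-15 and 230-15 together, the values of pathway and endothelial genes without 1 of them, differences within suffixes or sexes, leaving out each pig on the endothelial scale, and the alternatives of ratios and of scaling and pseudocount in correlations were added after the data were seen. No sequences or coordinates are given because no genome of that build was used here.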

Additional observations from a re-analysis of the deposited data

Results flagged for a closer look

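Of 30 groups of values checked for a pig far from the rest of its group, 5 held one, where chance gives about 1 in 20. Among No NEC pigs, 230-15 was far below the others in FLT1, at 2.80 FPKM. Among Co-NEC pigs, 231-15 was far above the others in ANGPT2, at 3.30 FPKM. Among Si-NEC pigs, 539-14 was far below the others in ANGPT1 at 1.57 FPKM, 223-15 far below in TIE1 at 5.16 FPKM, and 246-15 far above in DLL4 at 4.65 FPKM. The pigs differed from one gene to the next.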

How the results depend on the processing

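No limma alternative brought any of the 8 genes past the adjusted threshold, including leaving out each pig. The number of entries called over the whole table was less steady. For Si-NEC against No NEC it was 1, rising to 2 with the suffix as a covariate and 4 with array weights, and 1 to 3 when each pig was left out. For Co-NEC against No NEC it was 1, rising to 4 without a filter, and 1 to 2 when each pig was left out. For Si-NEC against Co-NEC it was 2, falling to 1 with a pseudocount of 0.1, without a filter, in 1 fit of all groups, with sex or suffix as a covariate and at an adjusted p of 0.05, rising to 201 with array weights, and 1 to 12 when each pig was left out. Array weights turned ANGPT1 to 0.12 for Si-NEC against No NEC, KDR to -0.11 and TEK to -0.069 for Co-NEC against No NEC, and FLT1 to 0.024 for Si-NEC against Co-NEC. Without pigs 223-15 and 230-15, ANGPT1 and TEK for Si-NEC against No NEC were 0.058 and -0.0098. Relative to the endothelial genes, DLL4 for Co-NEC against No NEC was 0.10 and TEK for Si-NEC against Co-NEC -0.044. Leaving out single pigs changed the sign of 8 of the 24 differences, in 16 fits in all. For Si-NEC against No NEC, ANGPT1 ranged from -0.18 to 0.10 and ESM1 from -0.0013 to 0.22. For Co-NEC against No NEC, KDR ranged from -0.13 to 0.26, ANGPT2 from -0.15 to 0.14, TEK from -0.082 to 0.11 and DLL4 from -0.31 to 0.027. For Si-NEC against Co-NEC, FLT1 ranged from -0.28 to 0.033 and ESM1 from -0.19 to 0.061. The correlation of FLT1 with KDR rose to 0.71 with group means removed (permutation test, adjusted p = 0.0133) and 0.66 with rescaling (permutation test, adjusted p = 0.0378). Spearman rho was 0.61 (permutation test, adjusted p = 0.0547) and 0.36 (permutation test, adjusted p = 0.67). With group means removed, values were still shuffled across groups, so those p values are approximate. Both settings keep pigs 223-15 and 230-15, without which r was 0.09 in the main setting. The correlation of DLL4 with ESM1 was 0.053 without the 2 farthest pigs and 0.36 within Si-NEC pigs. The cause of these shifts was not tested. No paired analysis was possible because each pig belongs to 1 group and its replicate number only follows accession order. Depth is unknown, so it limits the low values to an extent that cannot be given.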
